A study of Mus musculus with 9 samples.

Results

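The 36 genes described here act in mitosis. They were listed by name from textbook knowledge of cell division, with earlier results of these data known though no measured value enters the rule: cyclins and their kinase with its activating phosphatases, the Plk1, Aurora and Ttk kinases, the spindle checkpoint, the chromosomal passenger complex, centromere and kinetochore proteins, spindle motors, the cytokinesis machinery, the proteins that separate sister chromatids, the proliferation marker Mki67 and the transcription factor Foxm1. All 36 were found among the 46078 genes of the deposited tables, each once. In dividing cells most of these genes are transcribed in late S phase, G2 and M and kept silent in quiescent cells. Their promoters are bound by the MuvB complex, which carries Rb-like proteins and E2F4 in resting cells (the DREAM complex) and B-Myb and then FOXM1 in cycling cells, and by the CCAAT-binding factor NF-Y. Macrophages can proliferate in response to the cytokines M-CSF (macrophage colony-stimulating factor) and GM-CSF (the granulocyte-macrophage counterpart), and genes of this class are widely used as markers of dividing cells.

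The libraries came from 3 macrophage cultures of the inbred C57BL/6J mouse strain, all kept for at least 8 weeks, with 3 libraries each. BMM were bone marrow macrophages, in a medium the labels do not describe. FLM_M were grown from fetal livers of gestational day 15 to 19 with 20% fetal bovine serum and 30% of medium taken from L cells, a fibroblast line that secretes M-CSF. FLM_G came from fetal livers of gestational day 15 to 19 as well and were given 30 ng/ml recombinant GM-CSF with 10% serum. The labels speak of triplicate plating and of no separate animals or cultures, so p-values measure the spread between these libraries only, which may be technical, and anything particular to 1 culture cannot be told apart from its group. The FLM_G and FLM_M cultures differed in serum as well as in cytokine, and BMM and the fetal liver cultures in tissue of origin and in sex genes: Xist, transcribed from the inactive X chromosome, lay between 41.3 and 74.3 scaled FPKM in the 6 fetal liver libraries and at no more than 0.004 in BMM, while the Y-linked Eif2s3y lay between 10.6 and 11.3 in BMM and at 0 in the other 6. Which of these a difference goes with cannot be told apart.

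The 250 bases before the transcription start are shown for 4 of the members. They were read from the RefSeq promoter table of the mouse build GRCm38.p6, 5′ to 3′ on the strand of the gene. Capitals mark CCAAT or its reverse complement ATTGG, the letters that NF-Y is known to bind, and TTTGAA with its reverse complement TTCAAA and the palindromic form TTCGAA, the core letters of the CHR element that MuvB is known to bind. Ccnb2 (chr9:70421555-70421804, minus strand), Top2a (chr11:99024190-99024439, minus strand) and Kif11 (chr19:37376132-37376381, plus strand) hold both kinds of letters, and Cenpf (chr1:189688087-189688336, minus strand), one of the members with the lowest FLM_G level relative to BMM, holds CCAAT alone. None of these windows overlaps an exon of the GENCODE M21 annotation.
Ccnb2: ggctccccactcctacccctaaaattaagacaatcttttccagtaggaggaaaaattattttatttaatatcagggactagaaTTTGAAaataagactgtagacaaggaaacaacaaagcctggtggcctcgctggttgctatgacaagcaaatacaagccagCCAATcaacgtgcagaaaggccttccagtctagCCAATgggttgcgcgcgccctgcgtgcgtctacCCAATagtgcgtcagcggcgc
Top2a: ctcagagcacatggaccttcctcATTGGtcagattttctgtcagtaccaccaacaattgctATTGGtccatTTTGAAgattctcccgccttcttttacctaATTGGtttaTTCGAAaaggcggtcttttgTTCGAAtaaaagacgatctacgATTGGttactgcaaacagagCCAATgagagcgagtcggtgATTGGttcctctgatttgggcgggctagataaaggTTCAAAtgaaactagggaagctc
Kif11: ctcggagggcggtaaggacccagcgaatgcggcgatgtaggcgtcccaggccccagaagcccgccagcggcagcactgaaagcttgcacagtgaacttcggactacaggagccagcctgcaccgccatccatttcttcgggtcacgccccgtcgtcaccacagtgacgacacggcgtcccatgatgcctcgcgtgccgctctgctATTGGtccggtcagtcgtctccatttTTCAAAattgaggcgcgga
Cenpf: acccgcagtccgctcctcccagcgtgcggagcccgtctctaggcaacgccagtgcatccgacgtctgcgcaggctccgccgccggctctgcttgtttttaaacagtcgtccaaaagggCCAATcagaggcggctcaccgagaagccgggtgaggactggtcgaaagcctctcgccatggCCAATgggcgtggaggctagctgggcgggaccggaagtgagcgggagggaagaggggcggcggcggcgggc
The table matched 29 of the 36 members, all but Aurkb, Ccna2, Cdc25c, Foxm1, Incenp, Kif20a and Tpx2, with 32 windows. TTTGAA or the palindrome TTCGAA, searched on both strands, was present in 14 of the 32 windows (43.8%), against 17.1% of all 32841 windows of the same length. CCAAT, searched likewise, was present in 25 (78.1%) against 33.9% of all windows, and 2 or more copies in 16 (50.0%) against 10.1%. Both kinds of letters stood in 13 windows (40.6%) against 6.0% of all. Bub3, Ect2 and Prc1 had 2 overlapping windows each, so some letters were counted more than once. By gene, of the 29 matched, 12 held TTTGAA or TTCGAA, 22 held CCAAT, 14 held 2 or more CCAAT and 11 held both kinds. TTCGAA reads the same on both strands and was counted once, and the CCAAT and CHR letters can share at most 1 base. In 5 windows (15.6%, against 0.8% of all), those of Aurka, Ccnb1, Ccnb2, Cdca8 and Cdk1, 2 CCAAT in one orientation lay 31 to 34 bases apart, a spacing chosen after the matches were seen. The windows of Anln, Birc5, Mad2l1, Ndc80, Nuf2 and Pttg1 held neither kind of letters. A match describes the letters in the window and does not show that a factor binds there, and these genes were chosen as a class long known for such promoters.

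Levels are given as scaled FPKM: fragments per kilobase and per amount of sequencing, as the authors made them, brought to a common scale by 1 factor per library (0.80 to 1.14). Being per length, they can be set side by side between genes. From the steps between low values the libraries held about 28560000 to 35700000 reads, and the fewest reads implied for a member in 1 library were about 216, an upper estimate (Foxm1 in FLM_G replicate 3). Differences are on the log2(scaled FPKM + 1) scale, which understates the change of low genes, and p-values are from limma, adjusted by Benjamini-Hochberg over all 11952 genes tested, with a call at an adjusted p under 0.05. In bulk RNA, fewer cells in mitosis and less RNA of these genes per cell cannot be told apart. Macrophage markers were abundant in all libraries (9 genes summing to 5848 to 27125 scaled FPKM), and lymphoid, fibroblast and neutrophil granule markers summed to at most 0.4. Of the erythroid genes Hbb-bs, Hbb-bt and Alas2 were below 0.05, while the hepatocyte sum was at most 2.94, mostly Afp, with Alb below 0.05. The 5 endothelial markers summed to at most 8.14, with Tek, Tie1 and Emcn below 0.05.

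Mitosis genes were low in FLM_G. Against BMM, 35 of the 36 members fell in FLM_G, none rose, and Pttg1 was not called. The median change was -1.53 on the log2(scaled FPKM + 1) scale, where the median of all genes tested was 0. On that scale 30 members were at least 2-fold lower, a share that was not counted over all genes. Of all genes tested, 34.1% were called lower in this comparison. For those 35 members the 3 FLM_G libraries all lay below the 3 BMM libraries, a pattern seen in 37.1% of all genes tested. FLM_G levels ran from 7.14% of the BMM mean for Foxm1 to 95.3% for Pttg1, with a median of 31.9%, and 31 members were below 50%. The geometric mean of all 36 was 26.01, 26.1 and 25.3 scaled FPKM in the BMM libraries and 8.68, 8.34 and 8.40 in FLM_G, so the libraries of each group lay close together and far from the other group.

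FLM_M lay near BMM, and FLM_G below both. The geometric mean of the members in the FLM_M libraries was 23.4, 23.0 and 23.4 scaled FPKM, or 90.1% of the BMM mean, and 32.9% was the corresponding value for FLM_G. Against FLM_M all 36 members fell in FLM_G, with a median of -1.26, beside 0.002 over all genes. Of all genes tested, 35.1% were called lower there, and the libraries of all 36 members did not overlap, as was so, in that direction, for 36.2% of all genes. This comparison uses the same FLM_G libraries as the one with BMM, so the pair are not independent of each other. FLM_M against BMM gave 4 members higher, 18 lower and 14 not called, with a median of -0.20 beside -0.001 over all genes. Of all genes tested 22.7% were called higher and 21.9% lower in that comparison, 44.6% in all.

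**Figure D1:**
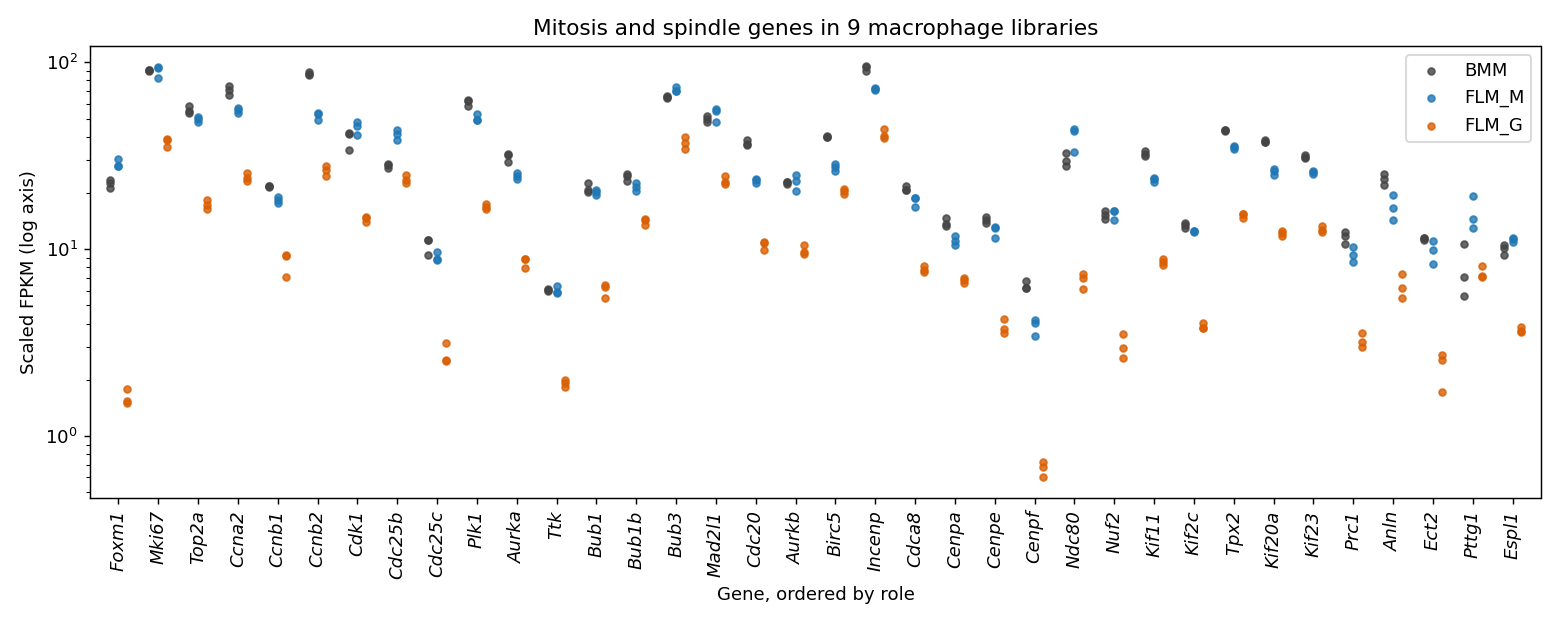
Scaled FPKM (log axis) of each of the 36 genes, ordered by role, 1 point per library, with 3 libraries each of BMM (dark grey), FLM_M (blue) and FLM_G (orange). The FLM_G points lie below the BMM points for every gene but Pttg1, and Foxm1 and Cenpf show the widest gaps.

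Other measures moved with this result. The scaling factors were 0.80 to 0.82 in FLM_G and 1.08 to 1.14 in the other 6 libraries. The 9 macrophage markers summed to 26879 to 27125 in FLM_G, 7849 to 8266 in BMM and 5848 to 6034 in FLM_M, nearly all of it Lyz2 in FLM_G (25416 to 25787). The markers did not share a direction in FLM_G against BMM: Lyz2, Mertk, Spi1 and Ptprc were called higher, Csf1r, Adgre1, Itgam and Fcgr1 lower (at 32.3%, 35.8%, 33.3% and 32.3% of BMM), and Cd68 was not called. The 8 progenitor, mast cell and megakaryocyte markers summed to 190 to 199 in BMM, 144 to 187 in FLM_M and 0.53 to 0.77 in FLM_G. Of these Pf4 alone stood at 188 to 197 scaled FPKM in BMM, 144 to 187 in FLM_M and 0.438 to 0.663 in FLM_G, while Flt3, Kit, Gata1, Cpa3 and Itga2b were below 0.05 in every library. Of the endothelial markers, Cdh5 stood at 4.19 to 4.34 in FLM_G, 0.41 to 0.441 in BMM and 0.384 to 0.557 in FLM_M, while Kdr stood in the same order at 0.044 to 0.075, 0.918 to 0.993 and 5.77 to 7.59. Epor was listed at 0 in BMM and stood at 2.175 to 2.525 in FLM_M and 4.16 to 5.999 in FLM_G. The part of these in the members' levels was not tested. Without any scaling the same 35 and 36 members were called lower in FLM_G against BMM and FLM_M. There the median of all genes moved to -0.34 and -0.39, and the share of all genes called lower is not given here.

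Foxm1 differed more than any other member. It encodes a forkhead transcription factor that activates G2 and M phase genes. It stood at 21.3, 23.6 and 22.7 scaled FPKM in BMM, at 30.2, 27.8 and 27.9 in FLM_M and at 1.78, 1.54 and 1.497 in FLM_G. FLM_M was thus the highest of the 3 groups and FLM_G far below both, at 7.14% of BMM and 5.61% of FLM_M, with no overlap between any pair of groups. The change was -3.17 (SE 0.06, limma adjusted p 5.8e-10) in FLM_G against BMM and -3.51 (SE 0.06, limma adjusted p 2.5e-10) against FLM_M, and 0.33 (SE 0.06, limma adjusted p 0.00291) in FLM_M against BMM. The gene lies at chr6:128362967-128376146 on the plus strand, and 2 other annotated genes overlap 2.5% and 1.7% of its exon length on the same strand, Tex52 (at 0 FPKM) and Gm44596.

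Mki67, which coats the surface of mitotic chromosomes and marks cycling cells, fell far less. It stood at 89.5, 91.5 and 91.2 scaled FPKM in BMM, 94.3, 82.9 and 93.3 in FLM_M and 38.6, 35.2 and 38.2 in FLM_G. BMM and FLM_M overlapped, and FLM_G was at 41.2% of BMM (log2 change -1.26, limma adjusted p 1.6e-07). The ratio of Foxm1 to Mki67 within a library was 0.248 ± 0.010 (SD, n = 3) in BMM, 0.318 ± 0.019 in FLM_M and 0.043 ± 0.004 in FLM_G, and the 3 groups did not overlap.

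Among the cyclins, their kinase and its phosphatases, all 6 genes fell in FLM_G against BMM, but not alike. Of all genes tested, 34.1% were called lower in that comparison. Ccnb2, a B-type cyclin that partners Cdk1, stood at 89.3, 85.5 and 86.5 scaled FPKM in BMM, 48.9, 53.6 and 52.7 in FLM_M and 24.5, 26.4 and 27.8 in FLM_G. Of all members it had the lowest FLM_M level relative to BMM (59.4%, log2 change -0.74, limma adjusted p 1.04e-05), and the 3 groups were clear of one another. Ccnb1, the cyclin that with Cdk1 drives entry into mitosis, was lower than Ccnb2 in every library: 21.6, 21.8 and 21.9 in BMM, 17.8, 18.9 and 18.3 in FLM_M and 9.30, 9.22 and 7.09 in FLM_G. Its FLM_M libraries lay below the BMM libraries, without a call (log2 change -0.24, limma adjusted p 0.059). The ratio of Ccnb2 to Ccnb1 was 4.00 ± 0.115 (SD, n = 3) in BMM, 2.82 ± 0.069 in FLM_M and 3.14 ± 0.684 in FLM_G, where replicate 3 reached 3.92.

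Ccna2, the cyclin of S phase and early mitosis, fell from 70.7 ± 4.05 (SD, n = 3) in BMM to 55.3 ± 1.68 in FLM_M and 24.3 ± 1.21 in FLM_G. Cdk1, the kinase that these cyclins activate, behaved differently in FLM_M: it stood at 33.8, 41.1 and 42.1 in BMM, 40.7, 47.9 and 45.8 in FLM_M and 14.6, 13.9 and 14.9 in FLM_G. BMM and FLM_M overlapped (log2 change 0.20, limma adjusted p 0.114). The ratio of Cdk1 to Ccnb2 was thus 0.449 ± 0.061 in BMM, 0.865 ± 0.031 in FLM_M and 0.553 ± 0.038 in FLM_G, each with 3 libraries and with no library of FLM_M inside the range of another group.

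The phosphatases that switch Cdk1 on parted from each other. Cdc25b stood at 28.2, 27.2 and 28.7 scaled FPKM in BMM, 43.6, 41.4 and 38.3 in FLM_M and 22.5, 23.5 and 25.03 in FLM_G. It rose in FLM_M (log2 change 0.54, limma adjusted p 0.000116) and fell slightly in FLM_G (-0.24, limma adjusted p 0.00758). Cdc25c stood at 11.2, 11.1 and 9.34 in BMM, 8.76, 9.66 and 8.82 in FLM_M and 2.52, 3.14 and 2.56 in FLM_G, a fall to 25.9% of BMM, with BMM and FLM_M overlapping. The ratio of Cdc25b to Cdc25c was 2.68 ± 0.341 in BMM, 4.54 ± 0.384 in FLM_M and 8.73 ± 1.17 in FLM_G (SD, n = 3), and did not overlap between groups.

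All 4 mitotic kinases fell in FLM_G relative to BMM, where 34.1% of all genes tested were called lower, and their median log2 change was -1.51. Plk1, which acts from mitotic entry to cytokinesis, stood at 58.3, 63.3 and 61.9 in BMM, 49.4, 53.2 and 49.1 in FLM_M and 16.9, 16.3 and 17.4 in FLM_G. Aurka, the Aurora kinase of centrosomes and spindle poles, stood at 32.2, 32.1 and 29.2 in BMM, 24.7, 23.8 and 25.7 in FLM_M and 7.97, 8.87 and 8.86 in FLM_G. Both fell in FLM_M as well, Plk1 to 82.7% and Aurka to 79.4% of BMM, with no overlap. Aurkb, the Aurora kinase of the passenger complex, did not follow Aurka in FLM_M: its means were 22.7 ± 0.267 (SD, n = 3) in BMM, 22.9 ± 2.20 in FLM_M and 9.87 ± 0.577 in FLM_G. Ttk, the kinase that starts the spindle checkpoint, was low throughout, at 6.06 ± 0.070, 6.04 ± 0.289 and 1.92 ± 0.093 in the same order. For Aurkb and Ttk the BMM and FLM_M libraries overlapped and the FLM_G libraries lay below both.

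The spindle checkpoint, which holds anaphase until every kinetochore is attached, fell in FLM_G in all 6 genes, to between 28.5% and 58.0% of BMM. Of the 6, 4 were at least 2-fold lower, a share not counted over all genes, of which 34.1% were called lower. Bub1, a kinase at the kinetochore, stood at 22.7, 20.7 and 20.3 in BMM, 20.2, 19.5 and 20.6 in FLM_M and 6.45, 6.26 and 5.49 in FLM_G. Bub1b, which encodes BubR1 of the mitotic checkpoint complex, had a BMM level near that of Bub1 and kept more of it: 24.5, 25.2 and 23.0 in BMM, 22.6, 20.4 and 21.4 in FLM_M and 14.3, 13.4 and 14.4 in FLM_G. FLM_G was at 28.6% of BMM for Bub1 and at 58.0% for Bub1b, whose libraries did not overlap either (log2 change -0.75, limma adjusted p 3.68e-06). Bub3, the partner of both proteins, was at 57.0% and Mad2l1, which encodes the Mad2 protein that inhibits Cdc20, at 46.9%. Cdc20, the activator of the anaphase-promoting complex that the checkpoint restrains, was at 28.5%: 36.3, 36.6 and 38.2 in BMM, 23.7, 22.6 and 23.4 in FLM_M and 10.96, 9.90 and 10.8 in FLM_G. Cdc20 fell in FLM_M too, to 62.8% of BMM (log2 change -0.65, limma adjusted p 1.09e-05), while Bub1, Mad2l1 and Bub3 were not called there.

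In the chromosomal passenger complex, which corrects wrong attachments and guides cytokinesis, Incenp and Birc5 were the most abundant parts. Incenp, the scaffold, stood at 90.1, 93.9 and 95.04 in BMM, 73.0, 71.9 and 71.5 in FLM_M and 40.5, 39.4 and 43.9 in FLM_G. Birc5, which encodes survivin, stood at 40.2, 39.6 and 39.9 in BMM, 26.2, 27.5 and 28.5 in FLM_M and 21.0, 19.9 and 20.5 in FLM_G. Of all members Birc5 had the smallest gap between FLM_G and FLM_M, at 74.6% of the FLM_M level (log2 change -0.41, limma adjusted p 4.52e-05), and yet no library overlapped. Cdca8, which encodes borealin, was at 36.9% of BMM in FLM_G.

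On the log2(scaled FPKM + 1) scale the centromere and kinetochore members held the 3 steepest falls after that of Foxm1, while as a percent of BMM Ect2 (20.5%) was below Ndc80 (22.7%). Cenpf, a large protein of the outer kinetochore, stood at 6.73, 6.18 and 6.18 in BMM, 4.04, 3.44 and 4.20 in FLM_M and 0.683, 0.602 and 0.722 in FLM_G. FLM_G was at 10.5% of BMM (log2 change -2.14, limma adjusted p 1.52e-08), and FLM_M between the others at 61.2% (-0.59, limma adjusted p 0.000198). Ndc80 and Nuf2 encode partners in the complex that grips the spindle microtubule. Ndc80 stood at 32.6, 27.8 and 29.8 in BMM, 33.1, 43.8 and 42.7 in FLM_M and 7.36, 7.002 and 6.10 in FLM_G. Nuf2 stood at 15.98, 14.4 and 15.2 in BMM, 14.4, 16.04 and 16.03 in FLM_M and 3.51, 2.62 and 2.95 in FLM_G. Both fell in FLM_G to about the same share of BMM, 22.7% and 19.9%, with FLM_G far below every other library.

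FLM_M replicate 1 was the lowest of its group for Ndc80, close to BMM replicate 1, and the call of Ndc80 as higher in FLM_M (log2 change 0.39, limma adjusted p 0.0229) was lost without BMM replicate 2 (adjusted p 0.0846), BMM replicate 3 (0.0666), FLM_M replicate 2 (0.0697) or FLM_M replicate 3 (0.0754). Over all 17 alternatives on the FPKM its adjusted p ran from 0.00256 to 0.0846. The ratio of Ndc80 to Cenpf was 4.72 ± 0.190 (SD, n = 3) in BMM, 10.4 ± 2.27 in FLM_M and 10.3 ± 1.64 in FLM_G, so both fetal liver cultures lay above BMM and overlapped each other. Cenpa, the histone H3 variant of centromeres, fell less than its neighbours in the list, from 13.8 ± 0.700 in BMM to 6.80 ± 0.203 in FLM_G (49.1%). Cenpe, a kinetochore motor, fell from 14.3 ± 0.567 to 3.84 ± 0.361 (26.8%).

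All 6 genes of spindle motors and microtubule-binding proteins fell at least 2-fold in FLM_G against BMM, a share not counted over all genes. Of all genes tested, 34.1% were called lower there. Kif11, the motor that pushes spindle poles apart, stood at 33.6, 32.4 and 31.4 in BMM, 23.7, 23.0 and 24.0 in FLM_M and 8.82, 8.27 and 8.56 in FLM_G. The 3 groups were well separated, with FLM_G at 26.3% and FLM_M at 72.6% of BMM (log2 changes -1.81 and -0.45, limma adjusted p 2.35e-09 and 6.7e-05). Tpx2, which activates Aurora A on the spindle, was at 35.3% of BMM in FLM_G and 81.4% in FLM_M. Kif2c, a kinesin that shortens microtubules at the centromere, was at 28.8% in FLM_G, and in FLM_M its libraries lay just under those of BMM without a call (log2 change -0.10, limma adjusted p 0.127).

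The genes of cytokinesis also fell in FLM_G. Kif20a, a kinesin of the midzone and midbody, stood at 37.7, 38.6 and 37.5 in BMM, 27.0, 24.99 and 26.1 in FLM_M and 12.2, 11.8 and 12.5 in FLM_G. Kif23, the motor of the centralspindlin complex, was at 40.9% of BMM, and Prc1, which bundles midzone microtubules, at 28.2%. Anln, the anillin of the contractile ring, stood at 25.1, 23.8 and 21.9 in BMM, 19.6, 14.4 and 16.7 in FLM_M and 7.35, 6.20 and 5.51 in FLM_G. Ect2, the exchange factor that activates RhoA at the furrow, stood at 11.5, 11.2 and 11.5 in BMM, 11.1, 9.86 and 8.30 in FLM_M and 2.55, 2.73 and 1.71 in FLM_G. FLM_G was at 20.5% of BMM for Ect2 and 26.9% for Anln, and for both the libraries within FLM_M and FLM_G were spread more widely, relative to their means, than for the other genes of cytokinesis.

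Top2a and Espl1 fell in FLM_G, and Pttg1 did not change detectably there. Top2a, the topoisomerase that untangles sister chromatids, stood at 58.2, 54.6 and 53.6 in BMM, 49.7, 48.0 and 51.2 in FLM_M and 18.3, 16.4 and 17.3 in FLM_G. Espl1, which encodes separase, the protease that cuts cohesin at anaphase, stood at 9.30, 10.1 and 10.6 in BMM, 11.4, 11.4 and 10.9 in FLM_M and 3.85, 3.64 and 3.60 in FLM_G. Pttg1, which encodes securin, the inhibitor of separase, stood at 7.13, 10.7 and 5.63 in BMM, 19.3, 13.0 and 14.4 in FLM_M and 7.06, 7.17 and 8.10 in FLM_G. Its BMM libraries spanned the FLM_G libraries (log2 change -0.02, SE 0.21, limma adjusted p 0.93), and all FLM_M libraries lay above both. It was called higher in FLM_M than in BMM (log2 change 0.93, SE 0.21, limma adjusted p 0.00606). The ratio of Pttg1 to Espl1 was 0.785 ± 0.261 (SD, n = 3) in BMM, 1.39 ± 0.279 in FLM_M and 2.02 ± 0.214 in FLM_G, and the 3 groups did not overlap.

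**Figure D2:**
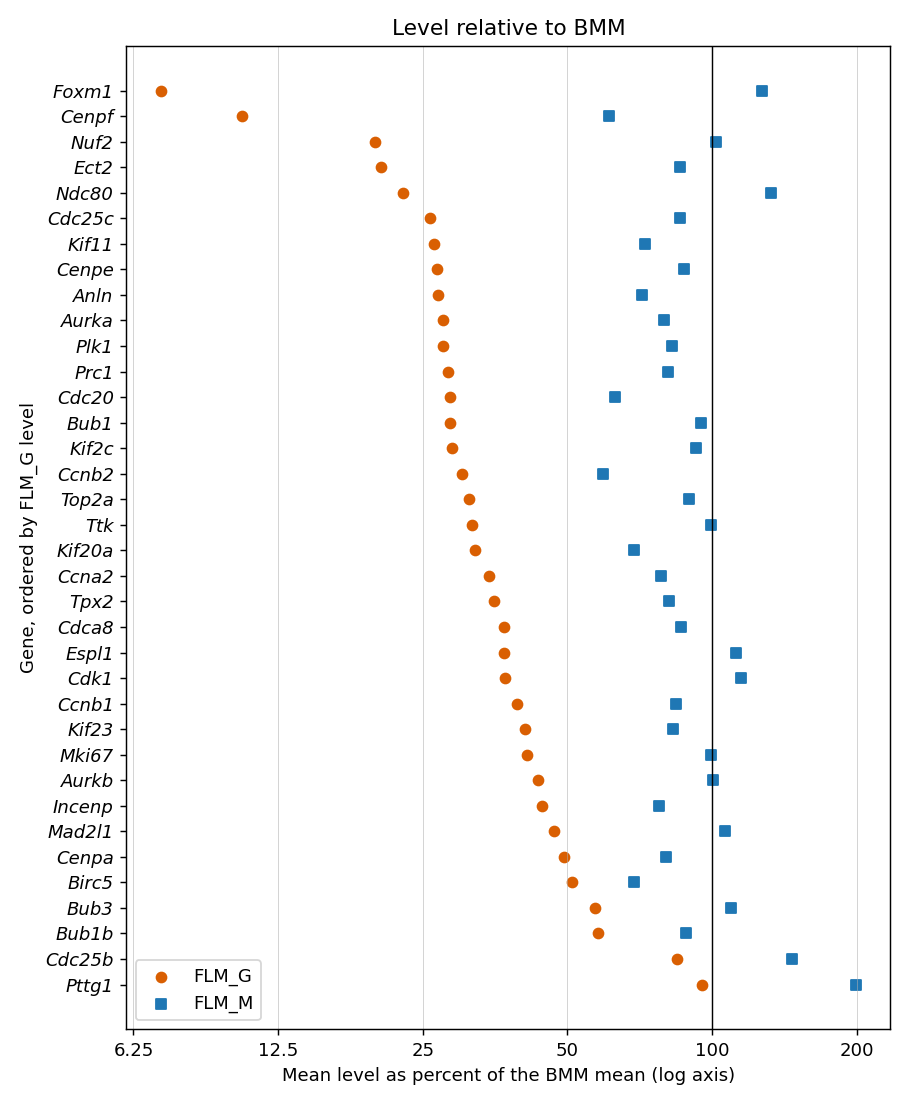
Mean level of each gene in FLM_G (orange circles) and FLM_M (blue squares) as a percent of its BMM mean (log axis, 3 libraries per mean), ordered by the FLM_G value. FLM_G runs from 7.14% for Foxm1 to 95.3% for Pttg1, while FLM_M runs from 59.4% for Ccnb2 to 199% for Pttg1 and lies right of FLM_G for every gene.

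The members did not share a direction in FLM_M against BMM. Pttg1, Cdc25b, Ndc80 and Foxm1 rose, by 0.93, 0.54, 0.39 and 0.33 on the log2 scale. The largest of the 18 falls were those of Ccnb2 (-0.74), Cdc20 (-0.65), Cenpf (-0.59), Birc5 (-0.53) and Kif20a (-0.53). No member was 2-fold lower, and none was called against a 1.5-fold change, a test for which the share of all genes called is not given here. In 28 members the BMM and FLM_M libraries did not overlap, where 57.3% of all genes tested did not overlap in either direction. The 8 members whose libraries overlapped were Mki67, Cdk1, Aurkb, Bub1, Mad2l1, Ttk, Cdc25c and Nuf2. Of the 22 calls, 17 held under all 17 alternatives on the FPKM other than the test against a 1.5-fold change, and those of Top2a, Bub1b, Cdca8, Ndc80 and Prc1 were lost under at least 1.

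The composition of the mitotic set also differed, as seen when each gene was set against the geometric mean of all 36 in its own library, which leaves the common fall out. In FLM_G, relative to BMM, the share of Foxm1 was lower by 2.21 log2 units (values of -2.40 ± 0.105 against -0.20 ± 0.081, SD, n = 3). That of Cenpf was lower by 1.65, that of Nuf2 by 0.73 and that of Ect2 by 0.71. Shares of Pttg1 (1.59), Cdc25b (1.36), Bub1b (0.82), Bub3 (0.79) and Birc5 (0.64) were higher. By construction these shares balance to 0, so a higher share is a smaller fall. The shares of Kif20a (-0.03), Ttk (-0.06), Ccna2 (0.07) and Top2a (-0.07) were nearly the same in both groups. In FLM_M the shares of Pttg1 (1.17), Cdc25b (0.70), Ndc80 (0.55) and Foxm1 (0.50) were higher than in BMM, and those of Ccnb2 (-0.60), Cenpf (-0.56) and Cdc20 (-0.52) lower. Foxm1 thus had its lowest share in FLM_G and its highest in FLM_M, while Pttg1 and Cdc25b had their lowest in BMM. These shares and the ratios between members are descriptions and were not tested.

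**Figure D3:**
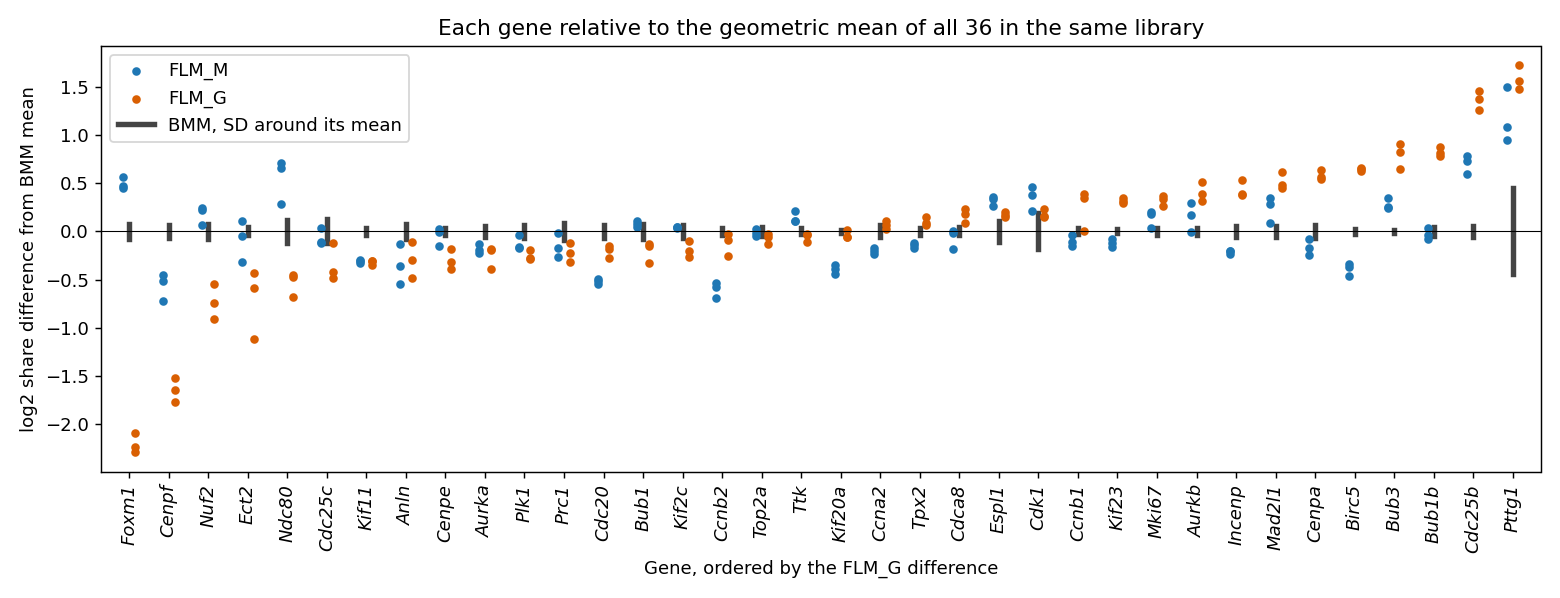
Each gene's log2 level relative to the geometric mean of the 36 in the same library, less the BMM mean, for 3 FLM_M (blue) and 3 FLM_G (orange) libraries, with the dark bar as 1 SD to each side of the BMM mean. Foxm1 and Cenpf lie lowest in FLM_G (-2.21 and -1.65), and Pttg1 and Cdc25b highest (1.59 and 1.36).

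Other genes of division were taken from lists written from textbook knowledge. Of 62 further kinetochore, centrosome and spindle genes, 60 fell in FLM_G against BMM and 1 rose, with a median of -1.12, where 34.1% of all genes tested were called lower and 33.8% higher. Nek2, a centrosome kinase, stood at 13.3, 11.6 and 12.5 in BMM, 10.6, 9.80 and 9.98 in FLM_M and 1.80, 1.53 and 1.75 in FLM_G (log2 change -2.32, limma adjusted p 6.26e-09). Pbk, a mitotic kinase, was at 26.8 ± 1.89 (SD, n = 3) in BMM, 44.2 ± 2.57 in FLM_M and 5.22 ± 0.552 in FLM_G, so like Foxm1 it was highest in FLM_M and lowest in FLM_G without overlap. The gene that rose, Psrc1, was named after its value was seen: 2.87 ± 0.278, 1.32 ± 0.212 and 3.78 ± 0.052 in the same order. Cks1b was not called (44.5 ± 12.1 in BMM, with replicate 1 at 58.4, and 38.5 ± 3.97 in FLM_G). Cep55, a protein of abscission, fell to 28.01% and Pimreg to 26.7% of BMM. In FLM_M against BMM 10 of the 62 rose and 16 fell, beside the 22.7% and 21.9% of all genes called higher and lower there. Cenpk of the inner kinetochore (0.74) and Pbk (0.70) rose, while Ube2c, the ubiquitin-conjugating enzyme of the anaphase-promoting complex, and the spindle protein Tacc3 fell (both -0.55). Racgap1, the partner of Kif23, and the spindle protein Nusap1 were level between BMM and FLM_M (32.2 ± 0.892 and 32.3 ± 0.922, and 31.1 ± 1.51 and 31.1 ± 1.11) and were not called.

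Of 16 condensin and cohesin genes, which compact and hold sister chromatids, 13 fell in FLM_G against BMM and 1 rose, with a median of -0.77 (34.1% and 33.8% of all genes). Smc2 of condensin fell from 19.0 ± 1.16 to 5.88 ± 1.10 (SD, n = 3) and Rad21 of cohesin from 78.9 ± 1.47 to 31.7 ± 4.38, and the condensin subunits Ncaph and Ncapg2 fell to 34.7% and 37.4% of BMM. The gene that rose, Smc1a, another cohesin subunit, went from 26.1 ± 1.13 to 39.9 ± 1.26 (limma adjusted p 3.48e-05) and was named after its value was seen. Of the 16 genes, 3 rose in FLM_M against BMM, among them Ncaph (0.44), and 2 fell, beside 22.7% and 21.9% of all genes. Of 17 genes of the anaphase-promoting complex and its regulators, 9 fell and 3 rose, with a median of -0.17, beside the same 34.1% and 33.8% of all genes. Fbxo5, its inhibitor Emi1, fell from 23.3 ± 0.344 to 7.83 ± 1.03, and the enzyme Ube2s, the activator Fzr1 (Cdh1) and the core subunit Cdc27 fell to 48.8%, 54.6% and 56.0% of BMM. The genes that rose, named after their values were seen, encode small subunits: Anapc13 (161.7% of BMM), Anapc16 and Cdc26. FLM_M gave 2 genes of this list higher than BMM and 4 lower, again beside 22.7% and 21.9% of all genes.

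Among 21 tested genes of the MuvB, E2F, Rb and NF-Y group, 14 fell in FLM_G against BMM and none rose, with a median of -0.43 (34.1% and 33.8% of all genes). Lin9, a MuvB core subunit, stood at 4.53, 3.94 and 4.22 in BMM, 5.02, 5.00 and 5.35 in FLM_M and 0.896, 0.773 and 0.718 in FLM_G, an 18.8% share of the BMM level (limma adjusted p 5.96e-08). Mybl2, which encodes B-Myb, fell less, from 7.51 ± 0.381 (SD, n = 3) to 4.69 ± 0.406, and Lin54, the MuvB subunit that contacts DNA, was not called (6.35 ± 0.530 and 5.02 ± 0.838). E2f8, an atypical repressor E2F, fell from 15.3 ± 0.919 to 3.58 ± 0.502. E2f1 (18.5 ± 1.98 and 16.9 ± 2.16) and Rbl2, the p130 protein of DREAM (6.58 ± 0.449 and 7.25 ± 0.409), were not called, while Rbl1 (p107), E2f4 and Nfya fell to 47.8%, 78.0% and 70.9% of BMM. Tfdp1, the dimer partner of E2F proteins, and E2f2 fell to 46.9% and 45.0%. In FLM_M, 5 of the 21 rose against BMM, among them E2f1 (0.49), and 6 fell, E2f2 the most (-0.87), where 22.7% and 21.9% of all genes did.

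A list of 19 regulators of mitotic entry and inhibitors of cyclin-dependent kinases held both genes that restrain the cycle and genes that promote entry into mitosis (Cdc25a, Bora, Mastl, Ensa and Arpp19). Of the 19, 5 were higher in FLM_G than in BMM and 9 lower, against 33.8% and 34.1% of all genes tested. Those higher were Cdkn2a, Gadd45a, Ensa, Arpp19 and Ppp2r2d. Wee1, which holds Cdk1 inactive, fell from 8.45 ± 0.577 to 3.09 ± 0.251 (SD, n = 3). Cdkn2c, an inhibitor of Cdk4 and Cdk6, fell to 20.5% of BMM, and Mastl, the Greatwall kinase that keeps mitotic phosphorylation from being undone, to 33.5%. Cdkn1a, which encodes p21, was at 122, 124 and 125 in BMM, 35.4, 32.6 and 33.3 in FLM_M and 106, 112 and 113 in FLM_G, so FLM_M was the low group and FLM_G only slightly below BMM (89.4%, limma adjusted p 0.0132). Cdkn2a, of which the tables do not separate the p16 and p19Arf transcripts, was at 1.67, 1.92 and 1.55 in BMM, 25.6, 30.2 and 26.8 in FLM_M and 15.5, 15.4 and 20.6 in FLM_G, high in both fetal liver cultures. In FLM_M against BMM 9 of the 19 rose, among them Cdkn2b (1.77), and 3 fell (22.7% and 21.9% of all genes).

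Of the 9 G1 cyclins, their kinases and Myc, 5 fell and 2 rose in FLM_G against BMM, again beside 34.1% and 33.8% of all genes. Ccnd1 fell from 191 ± 1.37 to 22.6 ± 2.07 (SD, n = 3), with FLM_M at 279 ± 16.6, while Ccnd2 rose from 1.10 ± 0.096 to 32.1 ± 1.46, with FLM_M at 9.05 ± 1.08. Myc rose from 21.6 ± 1.69 to 37.9 ± 3.37, and Cdk4 was not called (35.2 ± 3.49 and 36.6 ± 0.510). Ccne2 and Cdk6 fell to 29.2% and 33.1% of BMM, and in FLM_M only Ccnd1 and Ccnd2 of the 9 were called, both higher. Of 29 genes of DNA replication and S phase, 28 fell in FLM_G against BMM and none rose, beside the same 34.1% and 33.8% of all genes. Their median was -0.86. Rrm2, a subunit of ribonucleotide reductase, fell to 33.1% and Mcm2 of the replicative helicase to 59.2% of BMM. Fen1 was not called, and its libraries fell near 2 levels without regard to group: 11.8, 34.7 and 34.1 in BMM, 13.6, 32.1 and 13.0 in FLM_M and 13.3, 32.3 and 13.2 in FLM_G.

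On the FPKM, the medians of the replication list and of the mitotic members lay on opposite sides of 0 in FLM_M against BMM. Of the 29 replication genes 15 rose and 2 fell (22.7% and 21.9% of all genes), with a median of 0.22, whereas 4 of the 36 mitotic members rose and 18 fell, with a median of -0.20. On the deposited counts, where the members together had 876 to 3081 counts per library, their median was above 0, at 0.205 with edgeR and 0.145 with DESeq2. The median of the replication list was not taken on the counts, so the 2 lists cannot be compared there. Mcm2 stood at 34.2, 36.8 and 35.8 in BMM and 63.2, 59.0 and 58.1 in FLM_M (log2 change 0.74, limma adjusted p 5.27e-06), against a fall of Ccnb2 of the same size. Rrm2 was one of the 2 replication genes that fell (-0.30, limma adjusted p 0.00162). Rfc4, which loads the replication clamp (0.65), the primase subunit Prim1 (0.62) and Mcm10 (0.51) rose. The difference between these medians was not tested. In FLM_G against FLM_M, where 35.1% of all genes tested were called lower and 35.5% higher, 61 of 62 further spindle genes were lower and 1 higher, and 28 of 29 replication genes were lower and none higher. There 11 of 16 condensin and cohesin genes were lower and 1 higher, 11 and 4 of 17 of the anaphase-promoting complex, 14 and 2 of 21 of the MuvB and E2F group, 12 and 4 of 19 entry regulators and inhibitors, and 5 and 2 of 9 G1 genes.

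**Figure D4:**
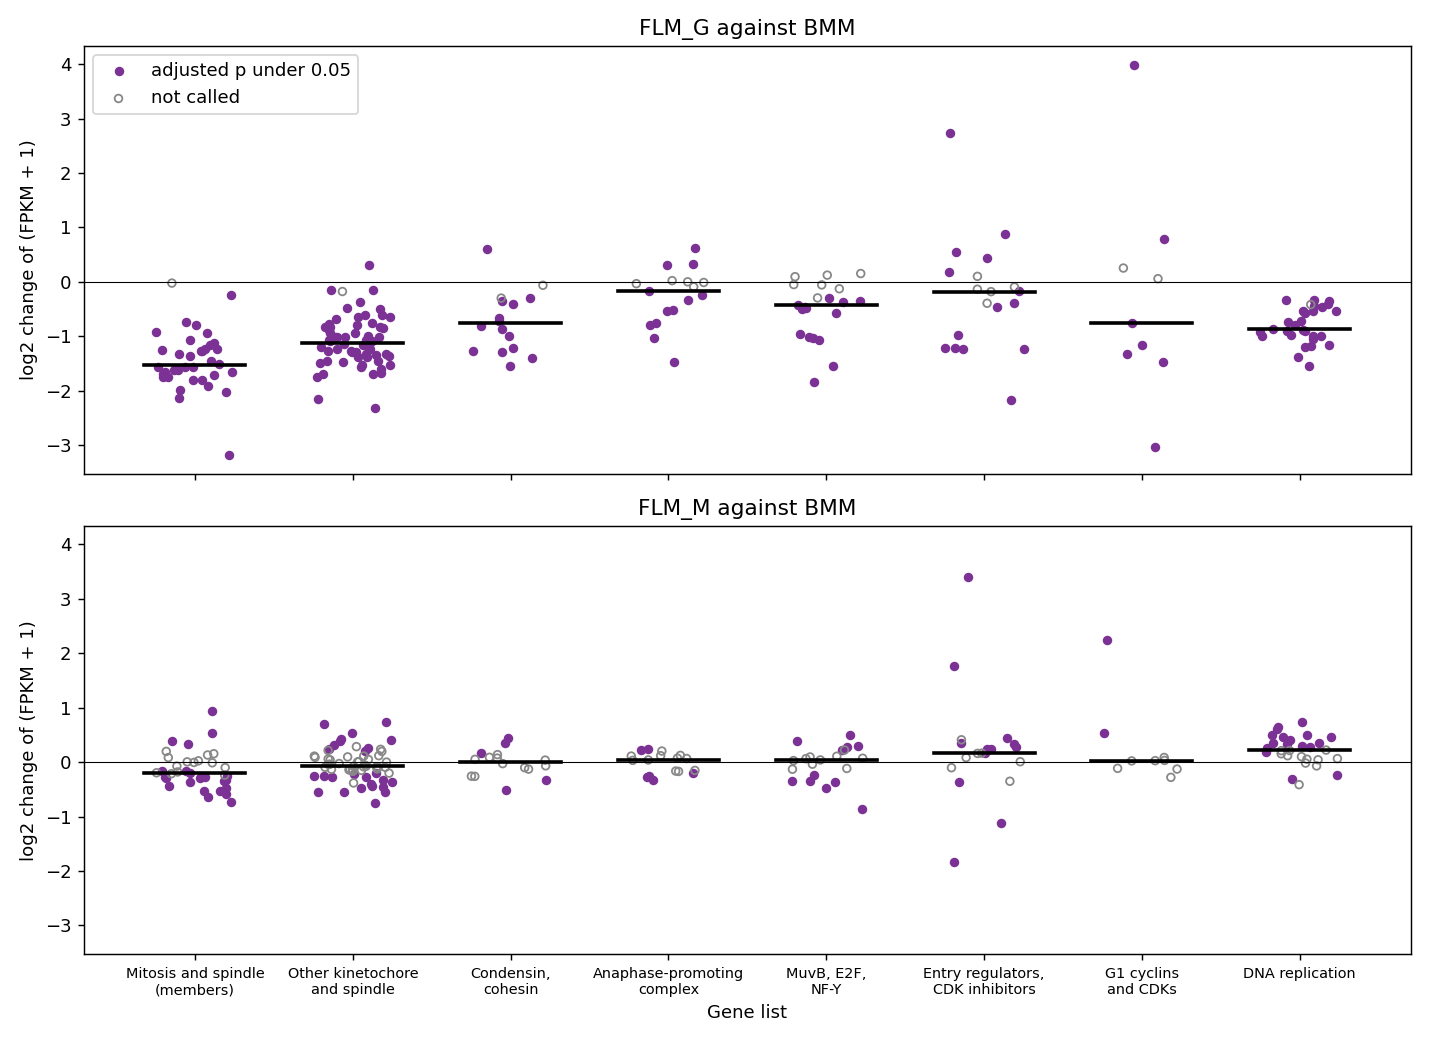
Change on the log2(FPKM + 1) scale of every tested gene in 8 lists, 1 point per gene (filled where the limma adjusted p was under 0.05), with a black bar at each list's median, for FLM_G against BMM (upper panel) and FLM_M against BMM (lower panel). In the upper panel the medians are -1.53 for the mitotic members, -1.12 for the further spindle genes and -0.86 for replication, and in the lower panel -0.20, -0.08 and 0.22.

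The deposited count table gave another picture for many members and was not used for the values above. Of the gene results it could give, edgeR kept the direction and call of 58 of 99 and DESeq2 of 50 of 108, and neither called a member lower in FLM_M than in BMM. The share of all genes called lower on the counts is not given here. No source used here gives its strand setting, and whether it counts reads of the opposite strand was not tested. It sums to 782400 to 1170813 per library, and 36.1% of its counts are in genes with a mean under 0.5 FPKM. Kif20a, 29.3% of whose exon length overlaps Cdc23 on the opposite strand, had 261 to 451 counts per library. Ccna2, 12.5% of which overlaps Exosc9 there, had 329 to 617, while Cdc25b, with 2.5% overlapping Spef1, had 5 to 55. Counts did not follow such overlap in every member. Mki67 and Incenp, without one, had 53 to 569 and 69 to 238. Cdc25c and Prc1, with 12.7% and 11.1%, had 0 to 8 and 14 to 87. In edgeR's quasi-likelihood test on those counts the direction of FLM_G against BMM turned, among members called on the FPKM, for Cdc25b (0.18) and Kif20a (0.07), without a call on the counts. FLM_G against FLM_M turned for Kif20a (0.39) and Ccna2 (0.26), and the median of the members in FLM_M against BMM turned from -0.20 to 0.20. Whether the FPKM of overlapping members separate the strands is not stated in the sources used here. Kif20a, Ccna2, Cdc25c and Prc1 share over 10% of their exon length with a gene on the other strand and are uncertain to that extent. In the same order those genes had a mean FPKM of 4.05 (Cdc23), 7.0 (Exosc9), 0.04 (Gm3550) and 1.12 (Rccd1), so the doubt is least for Cdc25c.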

How the data were processed

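RNA of 9 libraries, 3 each of BMM, FLM_M and FLM_G, was read for 101 cycles from 1 end after a stranded mRNA preparation, per the labels' protocols. HISAT2, StringTie, cutadapt, FastQC, bcl2fastq and DESeq2 are listed as software, per the submitters' processing notes. Their roles, versions and strand settings are not given in the sources used here. The authors deposited 1 table of read counts and 1 of FPKM over the same 46078 genes, of which 45143 were found in GENCODE M21.

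FPKM were scaled by TMM factors (edgeR 4.0.16). The test was limma 3.58.1 with a trend (R 4.3.3) on log2 of scaled FPKM plus 1, over the 11952 genes, all 36 members among them, that reached 1 FPKM in 3 or more libraries, with 1 mean per group and 6 residual degrees of freedom. The deposited counts (edgeR, DESeq2 1.42.0) served as alternatives, beside other scalings, filters and pseudocounts, the 6 libraries compared alone, a replicate block, a test against a 1.5-fold change and each library left out. Limma was also run on simulated data with independent normal noise and the same SD of a gene in every group. That setting follows limma's own model, so it cannot show how the test does on these libraries.

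All 36 members are named. From other lists the rule named up to 4 called genes with the largest change and a mean of at least 5, uncalled genes with a mean of at least 20, of which some are given, and 14 regulators by name. Members and lists were chosen with earlier results of these data known. From the low FPKM, 20.5% to 24.7% of values below 5 reads lay within 0.02 read of a whole number (4% by chance), too few to recover counts. One marker gene is not reported here.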

Additional observations from a re-analysis of the deposited data

How the results depend on the processing

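The falls in FLM_G did not depend on the settings tried on the FPKM: 35 members against BMM and 36 against FLM_M were called lower under all 17 alternatives other than the test against a 1.5-fold change, which did not call Cdc25b against BMM, nor Bub1b, Birc5, Cenpa and Pttg1 against FLM_M. Leaving out 1 library at a time gave 35 to 35 and 36 to 36 members lower, and in FLM_M against BMM 3 to 5 higher and 14 to 20 lower. The shares of all genes called under these alternatives are not given here. Without scaling the median changes were -1.90 and -1.65 in FLM_G against BMM and FLM_M, while the median of all genes moved to -0.34 and -0.39, and 7 members were higher in FLM_M against BMM. A pseudocount of 0.1 gave -1.62 and -1.33. Against a 1.5-fold change 0 members were higher and 0 lower in FLM_M against BMM, and the share of all genes called in that test is not given here. Same-numbered libraries did not deviate together (r -0.077 to 0.09), so the numbers pair nothing by these data. With a replicate block 35 and 36 members remained lower in FLM_G, and in FLM_M against BMM 3 were higher and 17 lower, Ndc80 (adjusted p 0.0511) and Bub1b (0.0592) being lost.

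In FLM_M against BMM, Top2a was called in 8 of the 17 alternatives (adjusted p 0.03 to 0.22), Bub1b in 11 (0.028 to 0.171), Ndc80 and Prc1 in 12 each (0.00256 to 0.0846 and 0.0133 to 0.0983) and Cdca8 in 14 (0.00879 to 0.0559). Without BMM replicate 1 the calls of Top2a, Bub1b, Cdca8 and Prc1 were lost (adjusted p 0.133, 0.0925, 0.0559 and 0.0899), and without FLM_M replicate 2 those of Top2a, Bub1b, Ndc80 and Prc1 (0.141, 0.131, 0.0697 and 0.0983).

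On the count table edgeR called 21 members lower in FLM_G against BMM, 23 against FLM_M, and 2 higher and 0 lower in FLM_M against BMM. DESeq2 called 16, 19, 0 and 0. The shares of all genes called on the counts are not given here, so these numbers cannot be set against them. The median in FLM_G against BMM was -1.10 (edgeR) and -1.20 (DESeq2), and in FLM_M against BMM it turned to 0.205 and 0.145. Results not called on the FPKM changed sign in 6 cases with edgeR and 7 with DESeq2 and are not listed. Members called on the FPKM whose direction turned, with the edgeR and then the DESeq2 value, were Cdc25b (0.181, 0.126) and Kif20a (0.067, 0.03) in FLM_G against BMM, and Ccna2 (0.257, 0.31) and Kif20a (0.39, 0.442) against FLM_M. In FLM_M against BMM they were Top2a (0.506, 0.425), Bub1b (0.15, 0.075), Kif11 (0.299, 0.22), Kif23 (0.214, 0.15), Tpx2 (0.149, 0.065), Prc1 (0.138, 0.049) and Anln (0.098, 0.001), and with edgeR alone Plk1 (0.04), Aurka (0.014) and Cdca8 (0.069). The cause was not tested. The members together had 876 to 3081 counts per library in that table, and whether it counts reads of the opposite strand was not tested, since no source used here gives its strand setting.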
